A study of Rattus norvegicus with 12 samples.

Results

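The mitochondrially encoded transcripts of respiratory complexes III, IV and V were examined in RNA recovered with a Cpeb4 antibody and in total RNA of rat heart muscle cells. The set holds 6 of the 32883 genes in the count table, taken by Ensembl identifier. They are Mt-cyb (ENSRNOG00000031766) of complex III, Mt-co1 (ENSRNOG00000034234), Mt-co2 (ENSRNOG00000030371) and Mt-co3 (ENSRNOG00000030700) of complex IV, and Mt-atp6 (ENSRNOG00000031979) and Mt-atp8 (ENSRNOG00000033299) of complex V. All 6 had counts and all 6 passed the filter on low counts.

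The libraries came from ventricular cardiomyocytes of neonatal Wistar rats (1 to 2 days old, isolated with trypsin and a Percoll gradient). They form 4 groups of 3, namely Cpeb4 precipitate (IP) and input of cells given phenylephrine (PE) for 24 h, and IP and input of mock-treated cells. PE activates alpha-adrenergic receptors and makes cardiomyocytes grow larger (hypertrophy), and its dose is not given in the sources used here. IP RNA was eluted after an overnight incubation of myocyte lysate with the antibody, input was total RNA, and a control precipitate with another antibody was not analysed here.

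Mitochondrial mRNAs are transcribed inside the organelle from both strands of a small circular genome as long precursors, which are cut at the tRNAs between genes. They are translated by the mitochondrion's own ribosomes and encode membrane core subunits of the respiratory chain and the ATP synthase, which in heart muscle supply most of the ATP for contraction. Cpeb4 is a cytoplasmic protein that binds U-rich elements in the 3′ untranslated regions of nuclear-encoded mRNAs and acts on their poly(A) tails and translation. The design asks whether mitochondrial transcripts are recovered with Cpeb4 above or below their level in the cell, and whether PE alters that.

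Libraries were made with a kit that reads the end of each transcript. Counts of different genes were not divided by length, so comparisons below are between samples for 1 gene, or between the make-up of libraries. Totals ranged from 1423334 to 30216559 counts. The library of PE replicate 1 and mock replicate 2, in IP and in input, stood apart from the others in the values of these transcripts. These 4 libraries had 10857, 8887, 8455 and 9434 genes with a count (PE IP, PE input, mock IP, mock input), against 9578 to 11822 in the other 8, and the part of this in the results was not tested. Results are given with and without them. The labels do not say whether replicates were separate cultures or animals, and p-values therefore cover a spread that may be technical. Markers of the labelled cell type were not examined here, since symbols could not be matched.

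The 6 transcripts together made up a large part of the input libraries and a much smaller part of the precipitates. They held 1.33%, 7.37% and 4.89% of the counts in PE IP replicates 1, 2 and 3, against 5.77%, 28.2% and 34.3% in PE input. In mock cells they held 12.6%, 2.06% and 11.8% of IP counts, against 42.0%, 10.4% and 41.7% of input counts. The mean share was 4.53% ± 3.04 in PE IP and 22.8% ± 15.0 in PE input, and 8.85% ± 5.89 in mock IP and 31.4% ± 18.2 in mock input (SD, n = 3 each). The ranges overlapped in both treatments, because the inputs of PE replicate 1 and mock replicate 2 lay below the highest precipitates. Among the other 8 libraries, the 4 precipitates held 4.89% to 12.6% and the 4 inputs 28.2% to 42.0%, without overlap. PE replicate 1 and mock replicate 2 were set apart by values of these same transcripts, so this separation is no separate support. Between PE and mock cells, such bulk libraries cannot tell fewer cells of a type from less RNA per cell.

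**Figure D1:**
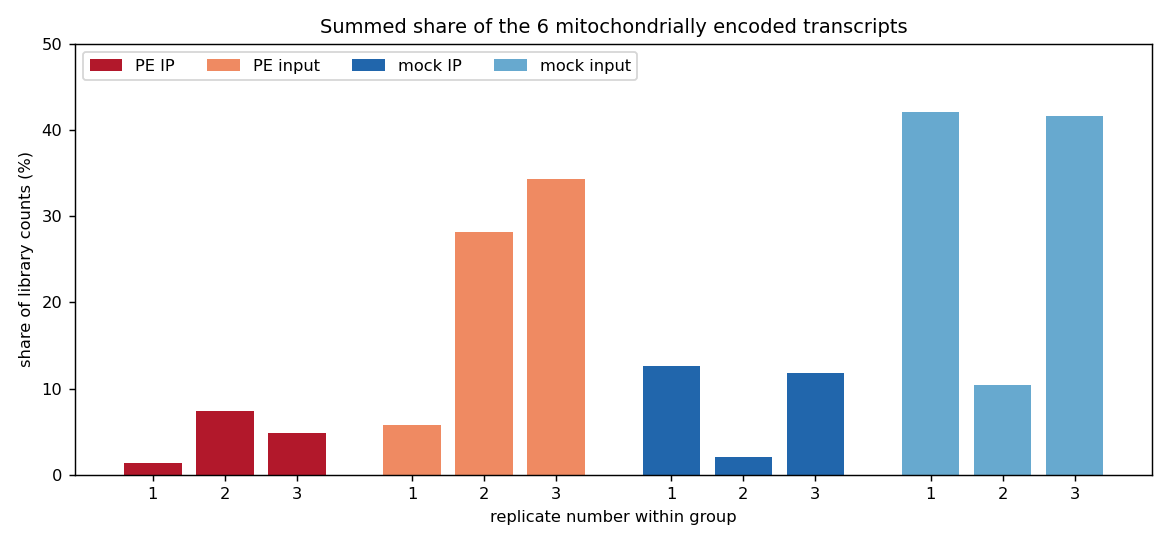
Bars give the summed share of library counts (%) of the 6 mitochondrially encoded transcripts in each of the 12 libraries, by group and replicate number. PE replicate 1 and mock replicate 2 are the lowest library of their group in IP and in input, with 1.33% and 5.77% in PE and 2.06% and 10.4% in mock cells.

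Mt-cyb encodes cytochrome b, the membrane subunit of complex III that oxidises ubiquinol. It held 0.0993%, 0.535% and 0.262% of counts in PE IP replicates 1 to 3, against 0.538%, 1.89% and 2.49% in PE input. In mock cells it held 0.690%, 0.236% and 0.647% of IP counts and 2.76%, 0.804% and 2.42% of input counts. Every precipitate lay below every input of the same treatment, although PE IP replicate 2 and PE input replicate 1 were nearly equal. The rate of this among all genes was not examined by share. On the TMM scale described next, it was 9.21% in PE cells and 7.9% in mock cells. After scaling with TMM factors, which set the level of most genes equal between libraries, Mt-cyb lay at 629 to 4821 CPM (counts relative to one common total) in the 6 precipitates and at 5620 to 56582 CPM in the 6 inputs. It was the only member whose 6 precipitates all lay below all 6 inputs on that scale, as was so for 2.99% of all genes.

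Mt-co1 encodes the catalytic subunit of cytochrome c oxidase (complex IV), which carries the heme and copper site where oxygen is reduced. It held 0.852%, 3.86% and 2.98% of counts in PE IP replicates 1 to 3, against 3.12%, 16.1% and 17.5% in PE input. It held 7.45%, 1.15% and 6.61% in mock IP, against 23.1%, 5.52% and 22.6% in mock input. In both treatments the share of the lowest input lay within the range of the precipitates, whereas the TMM-scaled levels did not overlap. By raw counts Mt-co1 ranked first among all genes in 8 of 12 libraries, and in the other 4, which are those of PE replicate 1 and mock replicate 2, it ranked between 3 and 8.

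Mt-co2 encodes the subunit that takes electrons from cytochrome c, and Mt-co3 the remaining mitochondrially encoded core subunit of complex IV. Mt-co2 held 0.140% to 1.26% of counts in PE IP and 0.766% to 5.81% in PE input, and 0.183% to 1.88% in mock IP and 1.21% to 7.18% in mock input. Mt-co3 held 0.116% to 1.11% in PE IP and 0.675% to 6.05% in PE input, and 0.271% to 1.71% in mock IP and 1.29% to 6.27% in mock input. For both genes the shares of the groups overlapped through the inputs of PE replicate 1 and mock replicate 2.

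Mt-atp6 encodes the ATP synthase subunit that forms the proton path beside the rotating ring. It held 0.120%, 0.597% and 0.241% of counts in PE IP replicates 1 to 3, against 0.674%, 1.72% and 2.44% in PE input. It held 0.916%, 0.216% and 1.04% in mock IP, against 3.16%, 1.56% and 3.57% in mock input. As for Mt-cyb, the precipitates of each treatment lay below its inputs. How often this held by share among all genes was not examined. On the TMM scale it held for 9.21% of all genes in PE cells and 7.9% in mock cells. The other 4 members overlapped by share in each treatment.

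Mt-atp8 encodes a small membrane subunit of the ATP synthase and lies on the same mitochondrial mRNA as Mt-atp6, upstream of it and with an overlapping reading frame. It had 128, 31 and 44 counts in PE IP replicates 1 to 3, against 9, 897 and 7183 in PE input. It had 229, 0 and 1011 counts in mock IP, against 2848, 34 and 421 in mock input. The 0 of mock IP replicate 2 allows up to 0.168 CPM (3 counts of the library total). The 9 counts of PE input replicate 1 give a share of 0.000174% (95% Wilson interval 0.000092% to 0.000331%, counting error only), below all 3 PE precipitates. Groups therefore overlapped in both treatments, and the counting of reads in the stretch that both genes share is not given in the sources used here. As the kit reads transcript ends and both genes lie on the same mRNA, Mt-atp8 values here and below are not levels of a separate mRNA.

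**Figure D2:**
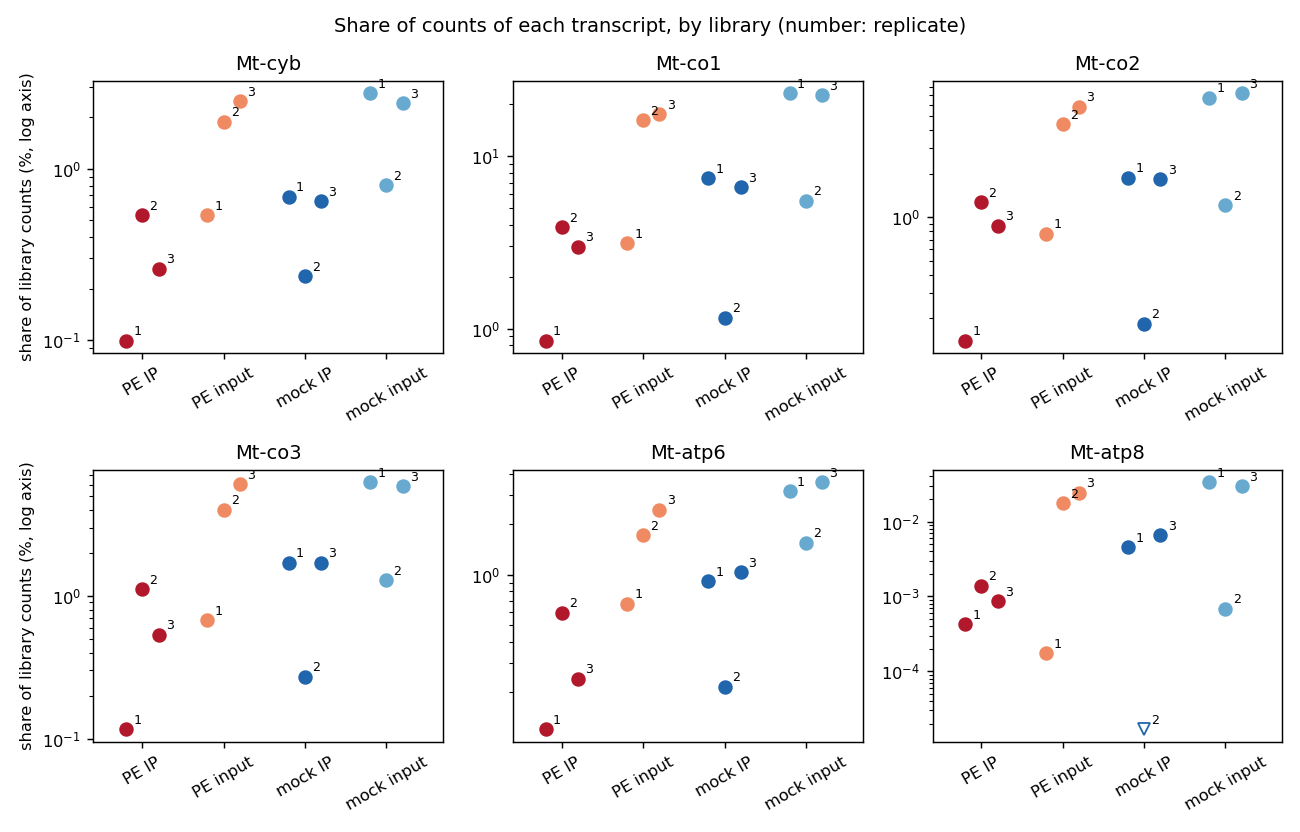
Each panel shows 1 transcript, with the share of library counts (%) on a log axis against group, and each point is a library labelled with its replicate number. The open triangle marks mock IP replicate 2, which had 0 Mt-atp8 counts, at the share that 3 counts would give. Replicates 1 of PE and 2 of mock are the lowest of their groups for Mt-co1, at 0.852% and 3.12% in PE IP and input and 1.15% and 5.52% in mock IP and input.

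Averaged over PE and mock cells, 3 of the 6 transcripts fell in the precipitates relative to input and none was higher. Of all 10491 genes tested, 3.62% were called lower in this comparison and 2.26% higher (edgeR quasi-likelihood test, Benjamini-Hochberg adjusted p under 0.05). Mt-cyb fell by 3.52 on the log2 scale (SE 0.68, 11.5-fold lower, edgeR adjusted p = 0.0134). Mt-atp6 fell by 3.44 (SE 0.65, 10.8-fold lower, edgeR adjusted p = 0.0124). Mt-co1 fell by 3.34 (SE 0.79, 10.1-fold lower, edgeR adjusted p = 0.0409). Mt-co3 had a value of -3.60 with an SE of 0.91 (edgeR adjusted p = 0.0530) and Mt-co2 of -3.47 with an SE of 0.94 (edgeR adjusted p = 0.0678), and neither passed. The value for Mt-atp8 was -4.67 with the largest error of the 6 (SE 1.61, edgeR adjusted p = 0.150).

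The fold sizes hold relative to the TMM scaling. Scaled by library totals, so that a fold change is a ratio of shares of counts, the averaged log2 fold changes were -2.19 for Mt-cyb (4.57-fold lower), -2.13 for Mt-atp6 (4.38-fold lower), -2.0 for Mt-co1 (4.01-fold lower), -2.24 for Mt-co3, -2.11 for Mt-co2 and -3.26 for Mt-atp8. All 6 kept their sign, and 4 passed, with Mt-co3 added (edgeR adjusted p = 0.0426), where 0.62% of all genes were lower. On this scale Mt-cyb passed within PE cells (edgeR adjusted p = 0.0489, 0.229% of all genes lower) and none within mock cells (0.0953% lower). The median of all genes was 0.16 with TMM factors and 1.31 with library totals. The median of the 6 transcripts was -3.50 and -2.16. Of 108 other genes with a mean of at least 1000 CPM, 60.2% were called lower with TMM factors, with a median of -1.04. A call as lower was thus common among abundant genes on that scale. With library totals 20.4% of the 108 were called lower, with a median of 0.10.

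The Wald test of DESeq2 passed all 6 transcripts in the averaged comparison. There it called 6.14% of all genes and 68.5% of the 108 abundant genes lower. With the replicate number as a block in edgeR all 6 also passed. There 4.88% of all genes and 69.4% of the 108 abundant genes were lower. The pairing rule given below was met in mock cells only, although the column names pair IP and input in both treatments.

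**Figure D3:**
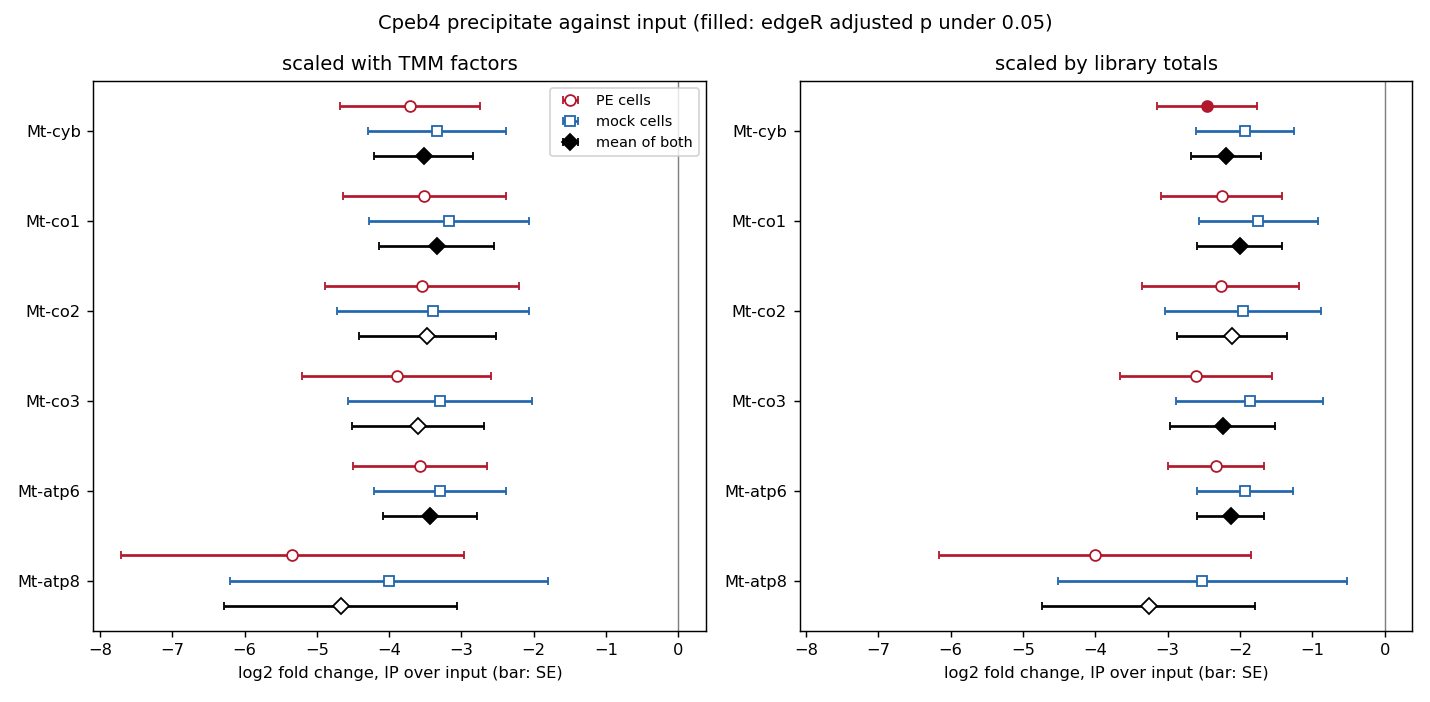
Log2 fold changes of IP over input with their SE for the 6 transcripts, in PE cells, in mock cells and as the mean of both, with TMM factors on the left and library totals on the right; filled symbols passed the threshold. All values are below 0. With TMM factors, the values that passed are the means of both treatments for Mt-cyb, Mt-co1 and Mt-atp6. With library totals, the mean for Mt-co3 and the value of PE cells for Mt-cyb passed as well.

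The errors were smaller without the libraries of PE replicate 1 and mock replicate 2. In that fit all 6 transcripts passed, where 8.04% of all genes and 74.1% of the 108 abundant genes were lower. The averaged log2 fold changes were then -3.63 for Mt-cyb (SE 0.25), -3.42 for Mt-co1 (SE 0.16), -3.51 for Mt-co2 (SE 0.19), -3.65 for Mt-co3 (SE 0.28), -3.47 for Mt-atp6 (SE 0.32) and -4.81 for Mt-atp8 (SE 0.27), with edgeR adjusted p of 5.8e-05 or less. The values of all 6 thus moved by less than their SE in the fit of 12 libraries. PE replicate 1 and mock replicate 2 were set apart by values of these same transcripts. Smaller errors can follow from that choice, so passes without them, here and below, are no separate support.

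Single libraries also decided calls in the averaged comparison. Mt-atp6 passed in 11 of 12 fits that left out 1 library and did not without PE IP replicate 3 (edgeR adjusted p = 0.0506). Mt-cyb passed in 10 of 12, the exceptions being without PE IP replicate 3 (0.0549) and without mock IP replicate 2 (0.0652). Mt-co1 passed in 2 of 12, those without PE input replicate 1 (0.0177) and without mock input replicate 2 (0.0230), and had adjusted p of 0.0955 to 0.128 in the other 10. Mt-co2 and Mt-co3 also passed in these same 2 fits. Over the 12 fits, 2.28% to 3.69% of all genes were lower.

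Within PE cells alone none of the 6 transcripts passed in edgeR, where 1.65% of all genes were lower. Without adjustment all 6 had p under 0.05, as had 1226 of all genes in either direction. The Wald test of DESeq2 passed 5 (all but Mt-atp8), where it called 4.02% of all genes and 56.5% of the 108 abundant genes lower. The log2 fold changes were -3.71 for Mt-cyb (SE 0.97, edgeR adjusted p = 0.0981), -3.51 for Mt-co1 (SE 1.13, edgeR adjusted p = 0.205), -3.54 for Mt-co2 (SE 1.34), -3.90 for Mt-co3 (SE 1.31), -3.57 for Mt-atp6 (SE 0.93, edgeR adjusted p = 0.0970) and -5.34 for Mt-atp8 (SE 2.37). On the TMM scale, IP and input libraries of PE cells did not overlap for Mt-cyb, Mt-co1 and Mt-atp6, as was so in this direction for 9.21% of all genes. The block by replicate number passed 5, with 2.79% of all genes and 63.0% of the 108 abundant genes lower. IP and input of PE replicate 2 correlated by only 0.016, however. The summed share of the 6 transcripts in IP was 23.0%, 26.1% and 14.2% of that in the same-numbered input, in PE replicates 1, 2 and 3. Without the 4 libraries all 6 passed, with 5.8% of all genes and 69.4% of the 108 abundant genes lower.

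Within mock cells alone none passed in edgeR either, where 0.581% of all genes were lower. Without adjustment 5 of 6 had p under 0.05, as had 1130 of all genes in either direction. The Wald test of DESeq2 passed 5 (all but Mt-atp8), where it called 2.67% of all genes and 45.4% of the 108 abundant genes lower. The log2 fold changes were -3.34 for Mt-cyb (SE 0.95, edgeR adjusted p = 0.206), -3.17 for Mt-co1 (SE 1.11, edgeR adjusted p = 0.316), -3.39 for Mt-co2 (SE 1.33), -3.30 for Mt-co3 (SE 1.28), -3.30 for Mt-atp6 (SE 0.92, edgeR adjusted p = 0.202) and -4.0 for Mt-atp8 (SE 2.19). On the TMM scale the mock IP and input libraries did not overlap for 5 members, the exception being Mt-atp8, as was so in this direction for 7.9% of all genes. Without the 4 libraries all 6 passed, with 3.25% of all genes and 55.6% of the 108 abundant genes lower.

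In mock cells, IP and input libraries of the same replicate number deviated together weakly, with correlations of 0.183 to 0.284 over genes of at least 10 CPM, and the paired values are given. Mock input replicate 3 correlated best with IP replicate 1, and the other 5 mock libraries with their own number. The summed share of the 6 transcripts in IP was 30.1%, 19.9% and 28.4% of that in the input of the same number, in replicates 1, 2 and 3. The low input of replicate 2 thus went with a low precipitate. For Mt-co1 these values were 32.3%, 20.9% and 29.2%, and for Mt-cyb, whose range was the narrowest, they lay between 25.0% and 29.3%. They lay between 21.0% and 29.0% for Mt-co3, 15.2% and 27.9% for Mt-co2, 13.9% and 29.1% for Mt-atp6, and 0% and 22.1% for Mt-atp8. With the replicate number as a block, 1.69% of all genes and 48.1% of the 108 abundant genes were lower in mock IP. Of the 6 transcripts, 5 fell in that fit. Their log2 fold changes were -3.13 for Mt-cyb (SE 0.36, edgeR adjusted p = 0.00154), -3.12 for Mt-co1 (SE 0.27, edgeR adjusted p = 0.000295), -3.41 for Mt-co2 (SE 0.27), -3.20 for Mt-co3 (SE 0.35) and -3.37 for Mt-atp6 (SE 0.37). Mt-atp8 did not pass, at -4.58 (SE 1.19, edgeR adjusted p = 0.107).

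The make-up of the 6 transcripts differed less between groups than their sum. Mt-co1 held 64.1%, 52.4% and 60.9% of their summed counts in PE IP replicates 1 to 3, against 54.0%, 57.2% and 51.0% in PE input. It held 58.9%, 56.0% and 55.8% in mock IP, against 54.9%, 53.2% and 54.2% in mock input. The mock precipitates lay above the mock inputs by this measure, while the PE groups overlapped. By their part of the summed counts, the other 5 members overlapped between IP and input in mock cells, and all 6 in PE cells. The difference for Mt-co1 was not tested.

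The make-up also differed in the 4 libraries that stood apart. Mt-co2 held 10.5% and 8.90% of the summed counts in PE IP replicate 1 and mock IP replicate 2, against 14.9% to 17.9% in the other 4 precipitates. Mt-atp6 held 11.7% and 15.0% in PE input replicate 1 and mock input replicate 2, against 6.10% to 8.56% in the other 4 inputs. Neither difference was tested.

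Mt-atp8 was compared with Mt-atp6, its partner on the shared mRNA, as a ratio of counts within each library. The ratio does not compare levels of separate mRNAs. Per 1000 Mt-atp6 counts there were 3.52, 2.34 and 3.61 Mt-atp8 counts in PE IP replicates 1 to 3, against 0.258, 10.1 and 9.97 in PE input. In mock cells there were 4.97, 0 and 6.29 in IP, against 10.6, 0.439 and 8.29 in input. Outside PE replicate 1 and mock replicate 2, the 4 precipitates lay at 2.34 to 6.29 and the 4 inputs at 8.29 to 10.6, without overlap. The inputs of PE replicate 1 and mock replicate 2 fell outside this pattern, below all precipitates but mock IP replicate 2. This ratio was chosen after its values were seen and was not tested. PE replicate 1 and mock replicate 2 were set apart by values of these same transcripts, so the separation without them is no separate support.

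**Figure D4:**
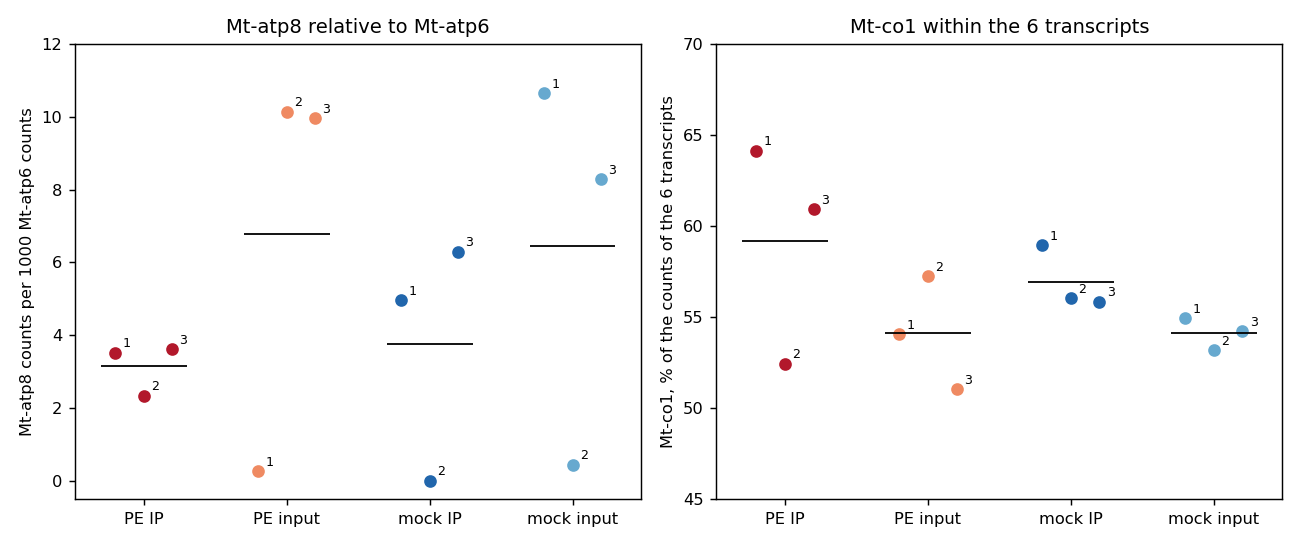
On the left, Mt-atp8 counts per 1000 Mt-atp6 counts, and on the right Mt-co1 as a percentage of the summed counts of the 6 transcripts (axis from 45 to 70%), against group. Points are libraries labelled with their replicate number and lines are group means. On the left, 2 of 3 inputs of each treatment lie at 8.29 to 10.6, above all precipitates, and the remaining inputs lie at 0.258 and 0.439.

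PE against mock moved none of the 6 transcripts past the threshold. In the precipitates the log2 fold changes were -0.94 for Mt-cyb (SE 0.88), -1.12 for Mt-co1 (SE 1.03), -0.90 for Mt-co2 (SE 1.22), -1.19 for Mt-co3 (SE 1.18), -1.31 for Mt-atp6 (SE 0.85) and -2.24 for Mt-atp8 (SE 2.09), each with an edgeR adjusted p of 1. None had p under 0.05 without adjustment, and none passed in DESeq2. For Mt-co1 the 95% interval ran from -3.45 to 1.21, so both a several-fold decrease and a rise lay within it. Of all genes, edgeR called 0% lower and 0.00953% higher, with 581 at an unadjusted p under 0.05, and DESeq2 called 0.161% lower.

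In the input the log2 fold changes of PE against mock were -0.57 for Mt-cyb (SE 0.87), -0.75 for Mt-co2 (SE 1.22), -0.59 for Mt-co3 (SE 1.17), -1.03 for Mt-atp6 (SE 0.85) and -0.90 for Mt-atp8 (SE 1.96), again each with an edgeR adjusted p of 1. Without adjustment none had p under 0.05, and DESeq2 passed none either. The value for Mt-co1 was -0.78 (SE 1.03, 95% interval -3.09 to 1.54). All 6 transcripts overlapped between PE and mock libraries, in IP and in input, by share and by TMM-scaled level, while 6.29% of all genes in IP and 4.18% in input lay lower in PE without overlap. Of all genes in the input, edgeR called 0% lower and 0.00953% higher, with 375 at an unadjusted p under 0.05, and DESeq2 called 0.0732% lower.

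Without the 4 libraries of PE replicate 1 and mock replicate 2, Mt-co1 and Mt-atp8 passed as lower in PE precipitates, where 0.177% of all genes were lower. Mt-co1 had 25380 and 18743 CPM in PE IP replicates 2 and 3, against 52084 and 47389 CPM in mock IP replicates 1 and 3. Its log2 fold change was -1.18 (SE 0.20, edgeR adjusted p = 0.0120). Mt-atp8 had 9.16 and 5.48 CPM in these PE precipitates, against 31.8 and 46.9 CPM in the mock precipitates. Its log2 fold change was -2.49 (SE 0.36, edgeR adjusted p = 0.00434). These calls rest on 2 libraries a group, left after a choice by values of these same transcripts, and are no separate support. With all libraries neither passed. In the input no member passed without the 4 libraries, where 0% of all genes were lower, with edgeR adjusted p from 0.340 to 0.977.

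**Figure D5:**
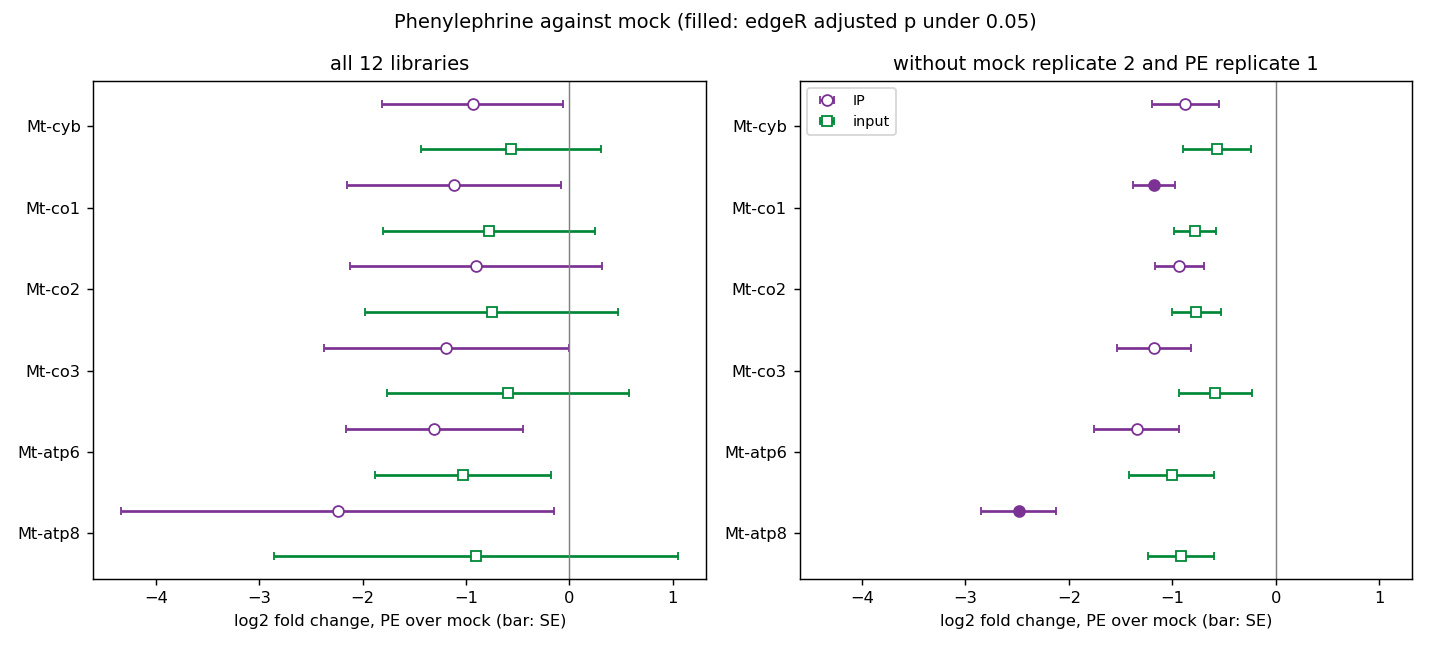
Log2 fold changes of PE over mock with their SE for the 6 transcripts in IP and in input, for all 12 libraries on the left and without PE replicate 1 and mock replicate 2 on the right; filled symbols passed the threshold. All values are below 0, and the values that passed are those of Mt-co1 (-1.18) and Mt-atp8 (-2.49) in IP without the 4 libraries.

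No change of the IP effect with PE was detected. The difference between the IP contrasts of PE and mock cells was -0.34 for Mt-co1 (SE 1.45, 95% interval -3.60 to 2.92), -0.37 for Mt-cyb (SE 1.23), -0.15 for Mt-co2 (SE 1.71), -0.60 for Mt-co3 (SE 1.65), -0.28 for Mt-atp6 (SE 1.19) and -1.34 for Mt-atp8 (SE 2.81), each with an edgeR adjusted p of 1.00. No member had an unadjusted p under 0.05 in edgeR, and DESeq2 passed none. Among all genes edgeR called 0% in either direction, with 271 at an unadjusted p under 0.05, and DESeq2 called 0.0132% lower and 0.0132% higher.

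The 6 transcripts varied together over the 12 libraries. The Pearson correlation of log2 CPM (with 0.5 added) of each member with the mean of the other 5 was 0.997 for Mt-co1, 0.993 for Mt-co3, 0.992 for Mt-co2, 0.975 for Mt-cyb, 0.964 for Mt-atp6 and 0.913 for Mt-atp8. These values describe libraries that share depth, sample type and the low content of PE replicate 1 and mock replicate 2. Among 5859 other genes with a mean of at least 10 CPM, 56 had a correlation of at least 0.9 with the mean of the 6, the highest being 0.998 and the fifth highest 0.964. None of them can be named from the tables used here.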

How the data were processed

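The authors deposited raw counts for 32883 rat genes in 12 libraries, keyed by Ensembl identifier; 32883 blank lines were skipped. In the submitters' processing notes stand STAR 2.7, cutadapt 2.5, featureCounts 1.6.4 and DESeq2, with the build Rnor_6.0. How strand and reads that match several genes, or nuclear copies of mitochondrial DNA, were treated is not given in the sources used here. Per the labels' protocols, libraries were made with the Lexogen QuantSeq kit from 200 ng of RNA with 15 cycles. Each column name matched the labels of 1 sample.

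Tests used edgeR 4.0.16 in R 4.3.3 (TMM factors, filterByExpr, 10491 genes, robust quasi-likelihood F-test, 1 fit of 4 group means over 12 libraries), with Benjamini-Hochberg adjustment over all genes within a comparison and a threshold of 0.05. The SE is the log2 fold change divided by the square root of F, and 95% intervals use the t quantile of the fit. Alternatives were DESeq2 1.42.0, other scalings, no filter, fewer libraries and replicate blocks. The steps were tested on simulated counts. No 2 libraries of a group agreed within sampling noise (chi-square, genes of 20 counts or more in the pair).

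Replicate numbers were taken as pairing where, over genes of at least 10 CPM, the deviations of same-numbered IP and input libraries from their group means correlated by over 0.1 in every pair. In mock cells the correlations were 0.246, 0.284 and 0.183, and in PE cells 0.281, 0.016 and 0.321. The column names mark IP and input of a number with the same letter in both treatments. The rule, and not the labels, thus set PE cells apart.

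The members, the lists and the 4 libraries left out were chosen with earlier results of these data known. The rule for named genes took all 6 members. The names of the 6 members were given with their identifiers. The reference table used here, 47357 genes of GRCr8, holds 0 Ensembl identifiers and 0 mitochondrial genes. Hence 7 lists of 101 related symbols (nuclear subunits, complex I, ribosomal RNA, assembly factors, RNA processing), the markers of the labelled cell type, gene lengths, coordinates and sequences were not used, and genes of like pattern are not named.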

Additional observations from a re-analysis of the deposited data

How the results depend on the processing

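Counts below are of the 6 transcripts called lower in IP. None was called higher in any fit. As reported, 0 passed in PE, 0 in mock and 3 on average. The DESeq2 Wald test gave 5 in PE, 5 in mock and 6 on average, no filter 6, 6 and 6 (where 1.68%, 1.21% and 3.11% of all 15786 genes were lower), and leaving out PE replicate 1 and mock replicate 2, IP and input, also 6, 6 and 6. In PE the median log2 fold change of the 6 was -3.64 with and without the filter. Their SE was 0.93 to 2.37 with it and 0.37 to 0.51 without it. The median SE of all genes was 1.14 with it and 1.59 without it. The passes without a filter thus came with smaller errors at like fold changes, and the reason was not tested. PE replicate 1 and mock replicate 2 were set apart by values of these same transcripts. Library totals gave 1 in PE, 0 in mock and 4 on average. DESeq2 size factors, leaving the members out of totals and TMM factors, and fits of 6 libraries kept 0, 0 and, where run, 3. Leaving out each library gave 0 in mock and 0 to 1 in PE. The 1 was without PE input replicate 1, where 1.61% of all genes were lower. On average it gave 0 to 5 (0 without PE IP replicate 3), with 2.28% to 3.69% of all genes lower. The cause was not tested. The replicate block gave 5 in PE, 5 in mock and 6 on average. Of the PE libraries 4 of 6 correlated best with their own number, and of the mock libraries 5 of 6. For PE against mock in IP, 0 passed. Without a filter 1 passed (0.0824% of all genes lower), and without the 4 libraries 2 passed (0.177% lower). With the replicate block 0 passed, as in input. That block joined PE and mock libraries of the same number. Their correlations were -0.204, 0.055 and 0.251 in IP, and -0.323, -0.318 and 0.242 in input. The rule for pairing was not met there, so this block says little about these results. For the change of the IP effect with PE, 0 passed throughout and the sign was unstable. With single libraries left out it ran from -0.86 to 0.22 for Mt-co1, -0.77 to 0.58 for Mt-co2, -1.14 to 0.39 for Mt-atp6, -1.49 to 0.25 for Mt-co3, and -1.13 to 0.29 for Mt-cyb, and with the replicate block it was 0.59 for Mt-atp8. The summed share stayed within 1 SD without the most abundant other gene, and leaving out single libraries moved it to 3.11% to 6.13% in PE IP, 17.0% to 31.3% in PE input, 6.95% to 12.2% in mock IP and 26.0% to 41.9% in mock input. Mt-atp8 had 0 to 34 counts in 4 libraries, and its 0 was in a library of 17838962 counts, while the shallowest, of 1423334 counts, had 421.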
